A study of Mus musculus with 6 samples.

Results

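The genes described are 9 transcription factors and regulators that carry the circadian clock's signal to other genes: the PAR bZIP factors *Dbp*, *Tef* and *Hlf*, the related bZIP repressor *Nfil3*, the DEC repressors *Bhlhe40* and *Bhlhe41*, the repressor *Ciart*, the nuclear receptor *Rora*, and *Arntl2*, the paralog of *Arntl*. They were found by gene name among the 43346 genes of the count table, where each had 1 row, and all 9 were among the 17589 genes with enough counts to be tested. Polyadenylated RNA was sequenced from mouse adult fibroblasts (MAFs), taken from ears of C57BL6/J females and kept in primary culture, in 3 control and 3 senescent samples. Control MAFs were sham irradiated, and senescent MAFs received 20 Gy of X-rays followed by 21 days in culture. Both groups were grown at 3% oxygen, were used between passages 3 and 8, and were given 100 nM dexamethasone, a glucocorticoid that sets cultured cells to a common clock phase, for 2 hours. RNA was collected 12 hours after that treatment, so every value belongs to 1 time point, and a change in average level, in amplitude and in phase cannot be told apart. The sources used here do not say whether the 3 samples of a group came from separate animals, so the p-values measure the spread between these samples, which may be technical.

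In the clock, the BMAL1:CLOCK complex, encoded by *Arntl* and *Clock*, binds E-boxes and drives its own repressors, the PER and CRY proteins, together with a layer of output factors. DBP, TEF and HLF are activators that bind D-boxes, and NFIL3 is a repressor that binds the same sites. BHLHE40 and BHLHE41 bind E-boxes and repress there, CIART represses BMAL1:CLOCK, and RORA activates genes through ROR elements, among them *Arntl*, at which the REV-ERB receptors NR1D1 and NR1D2 repress. ARNTL2 can take the place of BMAL1 as a partner of CLOCK.

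The start of each gene was looked up in RefSeq promoters of GRCm38.p6, which hold 250 bases before and 50 bases after a start site. Of the 9 genes, 8 matched, with 9 promoters because *Tef* has 2 start sites, and *Bhlhe40* was not matched. The only *Arntl2* promoter, chr6:146805280-146805579 (plus strand), lies inside the gene, which starts at 146796055 in the count table. The bases before that first start were therefore not searched. The promoters were searched on both strands for the E-box CACGTG, which reads the same on each strand, the E'-box CACGTT, the D-box TTANGTAA, the ROR element TAGGTCA or TGGGTCA, the AP-1 site TGACTCA and the glucocorticoid receptor site ACANNNTGT. E-boxes stood in *Ciart*, *Bhlhe41* and both promoters of *Tef*, where 7.15% of all 32851 promoters hold one. *Ciart* held 3 of them, 116, 58 and 44 bases before the start. In *Bhlhe41* the E-box began 153 bases before the start, and in *Tef* it began 127 and 138 bases before the 2 starts. *Nfil3* alone held a ROR element, 12 bases before its start, a motif that 6.45% of all promoters hold. No member held the E'-box (4.68% of all promoters), the D-box (2.32%), the AP-1 site (5.2%) or the glucocorticoid receptor site (6.85%), which says only that these letters are not in these windows. The upstream 250 bases of the promoters with a match are shown because they hold the element through which the loop is known to reach its outputs. They run 5′ to 3′ on the strand of the gene, with the E-box, or in *Nfil3* the ROR element, in capitals. *Ciart* lies at chr3:95882229-95882478 (minus strand), *Bhlhe41* at chr6:145865421-145865670 (minus), the *Tef* promoters at chr15:81802423-81802672 and chr15:81811164-81811413 (plus), and *Nfil3* at chr13:52981040-52981289 (minus).
Ciart: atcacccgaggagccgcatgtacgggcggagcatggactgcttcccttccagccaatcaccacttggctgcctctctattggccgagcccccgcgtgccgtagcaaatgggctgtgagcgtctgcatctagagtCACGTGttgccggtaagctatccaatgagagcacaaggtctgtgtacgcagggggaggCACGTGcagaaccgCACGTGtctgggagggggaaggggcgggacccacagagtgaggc
Bhlhe41: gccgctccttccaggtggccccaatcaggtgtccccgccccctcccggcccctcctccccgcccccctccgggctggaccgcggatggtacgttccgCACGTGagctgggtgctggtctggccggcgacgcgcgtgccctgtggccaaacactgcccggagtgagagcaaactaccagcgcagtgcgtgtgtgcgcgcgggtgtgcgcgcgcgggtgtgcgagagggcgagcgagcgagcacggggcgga
Tef, upstream start: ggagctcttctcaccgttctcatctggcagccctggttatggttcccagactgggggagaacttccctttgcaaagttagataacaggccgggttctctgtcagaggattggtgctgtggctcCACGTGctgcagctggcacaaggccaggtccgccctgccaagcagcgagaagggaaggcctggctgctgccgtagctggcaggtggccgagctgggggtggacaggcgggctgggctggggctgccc
Tef, downstream start: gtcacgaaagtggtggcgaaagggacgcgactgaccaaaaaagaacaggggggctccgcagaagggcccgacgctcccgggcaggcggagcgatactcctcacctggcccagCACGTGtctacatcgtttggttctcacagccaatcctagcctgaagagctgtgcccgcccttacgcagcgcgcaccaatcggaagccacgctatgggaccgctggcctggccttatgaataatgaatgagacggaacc
Nfil3: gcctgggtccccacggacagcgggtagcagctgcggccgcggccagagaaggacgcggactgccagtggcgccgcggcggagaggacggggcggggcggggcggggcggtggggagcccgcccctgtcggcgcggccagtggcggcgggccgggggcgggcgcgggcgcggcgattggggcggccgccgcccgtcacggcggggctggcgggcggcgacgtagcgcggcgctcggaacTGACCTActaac

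Total counts lay between 50288454 and 82229553 per library, and TMM scaling factors between 0.968 and 1.03. Levels are TMM-scaled CPM (counts scaled to a common library size). Senescent replicate 3 stood apart: the squared difference between libraries of a group, over that expected from counting, was 18.8 and 24.6 in its pairs, 2.24 between the other senescent libraries and 1.78 to 5.02 among controls. Its deviation followed GC content, with a median difference from the other senescent libraries of 0.29 on the log2 scale in the decile of genes lowest in GC and of -0.45 in the decile highest in GC. Between the groups the median log2 fold change fell from 0.26 in the lowest decile to -0.28 in the highest, and each member is therefore also given with a term for GC content where that matters. *Cdkn1a*, which encodes the cell cycle inhibitor p21, was 123 ± 2.01 CPM in control and 620 ± 16.3 CPM in senescent MAFs (SD, n = 3). Of 6 senescence checks 3 were higher (*Cdkn1a*, *Cdkn2a* and *Cdkn2b*) and 3 lower, *Lmnb1* (log2 fold change -3.55), *Hmgb2* (-4.03) and *Glb1* (-0.19). All 8 proliferation genes were lower in senescent MAFs. Of 10 fibroblast markers, 4 were higher and 5 lower, with a summed level of 17813 to 19904 CPM in control and 6764 to 8063 CPM in senescent libraries. Of 8 tested chondrocyte markers, 8 were lower, and the sum of the list went from between 5009 and 5583 to between 362 and 451 CPM. All 6 macrophage markers (sum 8.24 to 9.03 against 18.7 to 21.8 CPM) and all 4 tested endothelial markers (2.43 to 2.83 against 7.63 to 8.48 CPM) were higher in senescent libraries. The keratinocyte list, with 1 of 3 tested genes higher, summed to 2.74 to 3.45 and 17.5 to 18.1 CPM, the muscle list, with 2 of 3 higher, to 15.5 to 20.9 and 15.5 to 28.1 CPM, and the list of Schwann cells and melanocytes, with 1 of 5 higher and 3 lower, to 52.3 to 57.2 and 46.8 to 51.9 CPM. No marker was at 0 in all 6 libraries. Some of the genes called higher had enough counts only through the senescent libraries and could be called in that direction alone. Among them were *Itgam* (0, 0 and 1 control counts), *Cdh5* (3, 4 and 9), and *Ivl* and *Myh3* (0 in each control library). *Ptprc* (12, 7 and 9 control counts) and *Lyz2* (11, 7 and 21) also needed senescent libraries to have enough counts. So did *Kdr* (11, 14 and 8) and *Des* (18, 15 and 8). The numbers called higher in the macrophage, endothelial and muscle lists are to be read with this limit. *Ivl*, at 13.4, 14.1 and 14.5 CPM in senescent libraries, made up most of the keratinocyte sum there. These lists move with the group, as every member's change does, and their part in those changes was not tested. In bulk samples, fewer cells of a type and less RNA per cell cannot be told apart.

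Of the 9 members, 5 were higher in senescent MAFs (*Hlf*, *Bhlhe41*, *Bhlhe40*, *Rora* and *Arntl2*), 3 were lower (*Dbp*, *Tef* and *Nfil3*), and *Ciart* did not pass the test, by edgeR's quasi-likelihood test at an adjusted p under 0.05. The number called is to be read against a background in which 70.3% of all tested genes passed, with 36.2% of all tested genes higher and 34.1% lower. Control and senescent libraries did not overlap in any of the 9 genes, as in 75.3% of tested genes. *Hlf*, *Bhlhe40* and *Bhlhe41* passed the limits given in the study's methods for genes that rose, an unadjusted p under 0.05 with a log2 fold change over 1, which 17.8% of tested genes passed, and no member passed the same limits in the other direction, which 12.3% of tested genes passed. The median log2 fold change of the 9 was 0.31, beside 0.01 for all tested genes.

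**Figure D1:**
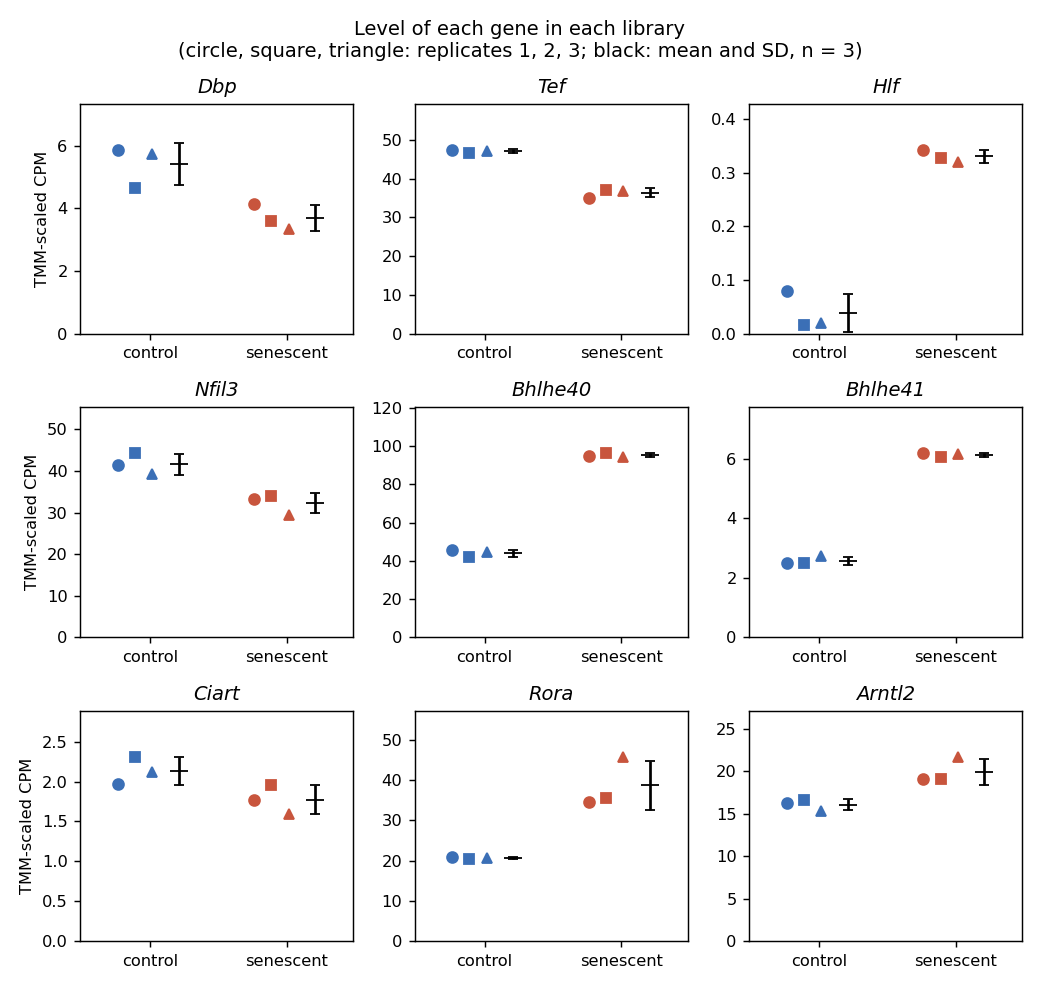
Level of each of the 9 genes in each library, in TMM-scaled CPM on axes that start at 0, with control libraries in blue, senescent libraries in red and the mean with its SD (n = 3) in black. *Bhlhe40* and *Bhlhe41* lie in tight groups far apart, *Rora* is highest in senescent replicate 3, and the *Ciart* groups nearly touch.

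Of the PAR bZIP activators, *Dbp* and *Tef*, which make up nearly all of the family's RNA here, were lower in senescent MAFs. *Hlf* was higher, from few counts and after a filter that it passed through the senescent libraries alone. *Tef* (ENSMUSG00000022389, chr15:81802421-81826861, mm10, plus strand), known like its relatives for control of detoxification and metabolic genes, was at 47.4, 46.6 and 47.1 CPM in control and at 34.9, 37.1 and 36.9 CPM in senescent libraries. All 3 senescent libraries lay below all 3 controls, and the spread within a group was small beside the gap. Its mean went from 47.0 ± 0.448 to 36.3 ± 1.20 CPM (SD, n = 3), a log2 fold change of -0.37 (SE 0.06, adjusted p = 0.000561). With the GC term the change was -0.24 (SE 0.06, adjusted p = 0.00242).

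*Dbp* (ENSMUSG00000059824, chr7:45705088-45710155, plus strand) is among the most strongly rhythmic outputs of the clock in many tissues. Its level was 5.87, 4.65 and 5.72 CPM in control libraries and 4.15, 3.60 and 3.33 CPM in senescent libraries, from 230 to 293 counts each. The groups did not overlap, but control replicate 2 lay closer to the highest senescent library than to the other controls. The mean went from 5.42 ± 0.666 to 3.69 ± 0.418 CPM, a log2 fold change of -0.56 (SE 0.13, 95% interval -0.86 to -0.25, adjusted p = 0.00579). This call was lost with the GC term, where the change was -0.22 (SE 0.17, adjusted p = 0.254). The longest transcript of *Dbp* is 61.6% GC, above 98.0% of tested genes. *Dbp* also shares 539 exon bases with *Sphk2*, a sphingosine kinase gene on the opposite strand, whose mean was 26.0 CPM in control MAFs and 19.9 CPM in senescent MAFs (log2 fold change -0.39, SE 0.22, adjusted p = 0.149). The libraries were prepared with a stranded kit, but the strand setting of the counting is not given in the sources used here. How reads in that stretch were assigned to *Dbp* and *Sphk2* is therefore not known.

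*Hlf* (ENSMUSG00000003949, chr11:90336536-90390895, minus strand), known as a factor of blood stem cells as well as a clock output, held 4, 1 and 1 counts in control libraries and 19, 26 and 27 counts in senescent libraries. Every senescent library lay above every control, but the gene was rare in both groups, at 0.0391 ± 0.0356 and 0.330 ± 0.0116 CPM (SD, n = 3). The ratio of the scaled sums, 72 counts against 6, was 8.69, with an exact 95% interval of 3.80 to 24.5. The interval treats each read as a separate count and leaves out the spread between libraries. Reads carried no molecular identifiers, so it may be too narrow even for counting error. The fitted log2 fold change was 3.05 (SE 0.46, adjusted p = 0.000537), and it was 4.02 without control replicate 1, which held 4 of the 6 control counts. *Hlf* passed the filter on low counts only through the senescent libraries, so its call had to come out higher if it came out at all.

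Per kilobase of gene length, the PAR bZIP genes together were at 7.50 to 8.04 CPM per kilobase in control and 5.87 to 5.99 in senescent libraries. *Tef* held 75.0 to 78.9% of that sum in control and 75.3 to 79.9% in senescent libraries, and *Dbp* nearly all of the rest. The share of *Hlf* was 0.0334 to 0.149% in control and 0.816 to 0.869% in senescent libraries, which kept it the smallest part of the sum in every library. The ratio of *Tef* to *Dbp* per kilobase was 3.29 ± 0.401 in control and 3.72 ± 0.513 in senescent MAFs (SD, n = 3), and its values overlapped between the groups.

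*Nfil3*, the repressor of D-boxes (ENSMUSG00000056749, chr13:52967209-52981073, minus strand), was lower by about as much as *Tef*. It was at 41.3, 44.2 and 39.2 CPM in control and at 33.1, 34.0 and 29.5 CPM in senescent libraries. The groups did not overlap, and senescent replicate 3 was the lowest of all. The mean went from 41.6 ± 2.54 to 32.2 ± 2.42 CPM, a log2 fold change of -0.37 (SE 0.08, adjusted p = 0.00378), which was -0.20 with the GC term (SE 0.05, adjusted p = 0.00360). The values of the repressor relative to the main activator overlapped between the groups. The ratio of *Nfil3* to *Tef* per kilobase was 3.38, 3.69 and 3.23 in the control libraries. Senescent replicate 1 was at 3.68, senescent replicate 2 at 3.56 and senescent replicate 3 lower. The means were 3.43 ± 0.236 and 3.45 ± 0.307 (SD, n = 3). The ratio of *Nfil3* to *Dbp* was 11.3 ± 2.16 and 12.7 ± 1.08, and its values also overlapped.

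Both DEC repressors rose, with little spread inside either group and the smallest adjusted p-values of the 9 genes. *Bhlhe40* (ENSMUSG00000030103, chr6:108660629-108666925, plus strand), which encodes DEC1 and also answers to hypoxia and growth signals, was at 45.4, 41.9 and 44.7 CPM in control libraries. In senescent libraries it was at 94.8, 96.2 and 94.4 CPM. Senescent replicate 3 did not stand apart here, and the SD within the senescent group was 0.946 CPM on a mean of 95.1. The mean in control MAFs was 44.0 ± 1.87 CPM, and the log2 fold change was 1.11 (SE 0.06, adjusted p = 1.10e-06). *Bhlhe41* (ENSMUSG00000030256, chr6:145858243-145865558, minus strand), which encodes DEC2, was at 2.49, 2.51 and 2.72 CPM in control and 6.19, 6.06 and 6.17 CPM in senescent libraries. Its libraries fell into equally tight groups, with means of 2.57 ± 0.127 and 6.14 ± 0.0716 CPM. The log2 fold change was 1.26 (SE 0.09, adjusted p = 8.39e-06). With the GC term the changes were 1.10 for *Bhlhe40* and 1.21 for *Bhlhe41*, and leaving out 1 library gave 1.08 to 1.13 and 1.23 to 1.29.

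*Bhlhe40* was the more abundant of the DEC pair in every library. Its ratio to *Bhlhe41* per kilobase was 35.0, 31.9 and 31.5 in control and 29.3, 30.4 and 29.3 in senescent libraries. The ratio was thus lower in every senescent library while both genes were higher, but the difference was small (-0.14 on the log2 scale) and was not tested. The 95% intervals of the 2 fold changes overlapped (0.98 to 1.24 and 1.04 to 1.47), and *Bhlhe41* held only 124 to 150 counts in control libraries. Both DEC genes lie on chromosome 6 and neither is close to the other. *Bhlhe40* shares 118 exon bases with the antisense gene 0610040F04Rik, which held 1 to 15 counts per library, far below the counts of *Bhlhe40*.

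*Ciart* (ENSMUSG00000038550, chr3:95878503-95882251, minus strand), whose promoter holds 3 E-boxes, did not pass the test. It was at 1.96, 2.31 and 2.13 CPM in control and at 1.77, 1.96 and 1.59 CPM in senescent libraries. The groups were separated only by the third decimal between control replicate 1 and senescent replicate 2. The means were 2.13 ± 0.172 and 1.77 ± 0.184 CPM, with a log2 difference of -0.27 (SE 0.13, adjusted p = 0.09995), and the 95% interval ran from -0.58 to 0.04. The adjusted p lay between 0.0760 and 0.278 over the 14 alternatives.

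*Rora* (ENSMUSG00000032238, chr9:68653786-69388246, plus strand), a receptor that also acts in immune cells and the cerebellum, was higher in senescent MAFs. It was at 20.8, 20.4 and 20.6 CPM in control libraries and at 34.6, 35.7 and 45.8 CPM in senescent libraries. The controls were close to equal, and senescent replicate 3 lay well above the other senescent libraries. The mean went from 20.6 ± 0.202 to 38.7 ± 6.19 CPM, a log2 fold change of 0.91 (SE 0.11, adjusted p = 0.000174). Without senescent replicate 3 it was 0.78 (SE 0.05, adjusted p = 1.92e-09), and with the GC term 0.70 (SE 0.05, adjusted p = 7.50e-08). The longest transcript of *Rora* is 40.9% GC, above 8.90% of tested genes.

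Of the receptors that share ROR elements with *Rora*, *Nr1d1*, which encodes REV-ERBα, was higher in senescent MAFs (20.5 ± 0.543 to 32.4 ± 7.07 CPM, log2 fold change 0.66, adjusted p = 0.00529). Its senescent libraries were at 36.4, 36.6 and 24.3 CPM, with replicate 3 the lowest, where *Rora* was highest. *Nr1d2*, which encodes REV-ERBβ, did not pass the test, at 34.6 ± 2.64 and 40.2 ± 6.92 CPM (log2 difference 0.22, adjusted p = 0.148), and was highest in senescent replicate 3 at 48.2 CPM. *Nr1d2* is 41.8% GC, close to *Rora*, and *Nr1d1* is 56.8% GC. The ratio of activator to repressor differed with the repressor and the library. The ratio of *Rora* to *Nr1d2* per kilobase was 0.211 to 0.239 in control and 0.364 to 0.374 in senescent libraries, with no overlap. The ratio of *Rora* to *Nr1d1* was 0.230 to 0.246 in control and 0.224 and 0.229 in senescent replicates 1 and 2, but 0.444 in senescent replicate 3. *Rorb*, which encodes a relative of RORA, went from 0.225 ± 0.0511 to 0.852 ± 0.209 CPM (log2 fold change 1.95, adjusted p = 0.000484). *Rorb* held only 12, 10 and 13 counts in control libraries and needed senescent libraries to pass the filter on low counts.

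*Arntl2* (ENSMUSG00000040187, chr6:146796055-146833529, plus strand) had the smallest change among the genes that passed. It was at 16.2, 16.6 and 15.3 CPM in control and at 19.1, 19.1 and 21.7 CPM in senescent libraries. The groups did not overlap, and senescent replicate 3 was the highest. The mean went from 16.1 ± 0.650 to 19.9 ± 1.53 CPM, a log2 fold change of 0.31 (SE 0.08, adjusted p = 0.00963), which was 0.16 with the GC term (SE 0.05, adjusted p = 0.0162). Its adjusted p reached 0.0496 when control replicate 3 was left out. *Arntl* itself was at 24.9, 24.3 and 23.5 CPM in control and at 53.7, 53.2 and 53.3 CPM in senescent libraries, a log2 fold change of 1.14 (SE 0.06, adjusted p = 1.09e-06). The ratio of *Arntl2* to *Arntl* per kilobase was thus lower in every senescent library, at 0.634 ± 0.0169 in control and 0.358 ± 0.0284 in senescent MAFs (SD, n = 3). The size of this ratio depends on the gene length used, which for *Arntl2* is 3032 bases in the table and 5691 in the joined exons of GENCODE M21, while its change between groups does not.

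**Figure D2:**
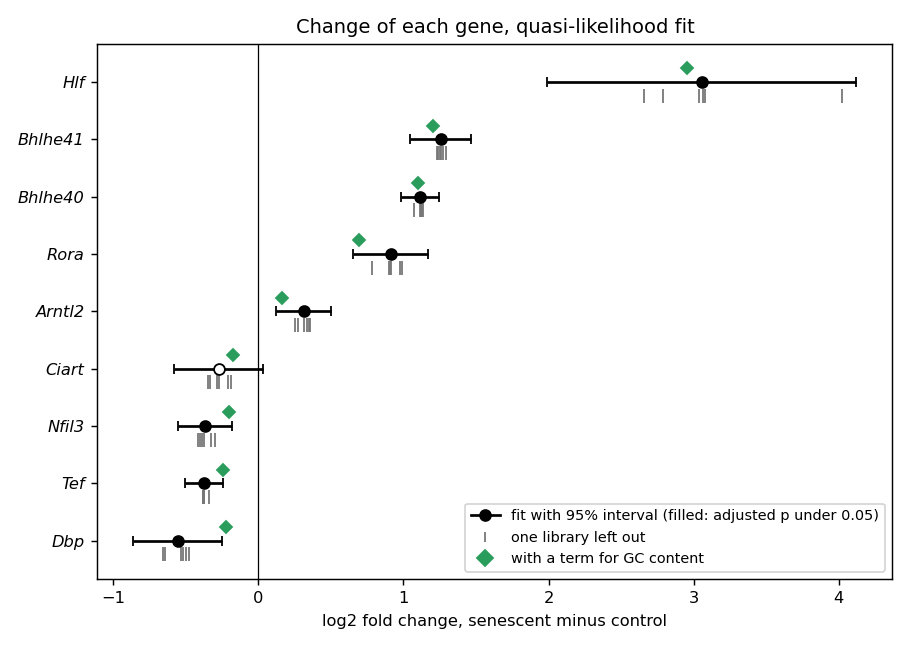
Log2 fold change (senescent minus control) of each gene with its 95% interval from the quasi-likelihood fit, filled where the adjusted p was under 0.05, with grey ticks for fits that leave out 1 library and green diamonds for the fit with a GC term. The GC term moves *Dbp* from -0.56 to -0.22 and leaves *Bhlhe40* and *Bhlhe41* close to where they were.

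**Figure D3:**
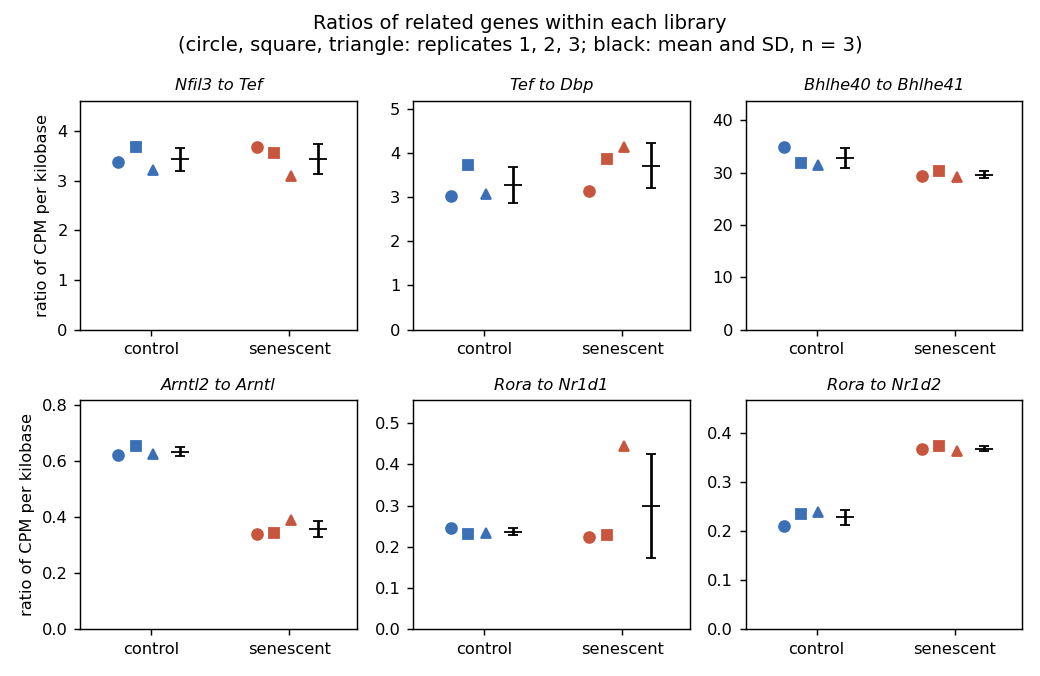
Ratios of CPM per kilobase between related genes within each library, control in blue and senescent in red, with the mean and SD (n = 3) in black. *Nfil3* to *Tef* is alike in means (3.43 and 3.45), *Arntl2* to *Arntl* is lower in all senescent libraries, and *Rora* to *Nr1d1* is at 0.444 in senescent replicate 3 alone.

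Read against the GC content of the whole table, the members that fell lie in GC deciles whose median also fell, and *Rora* and *Arntl2* in deciles whose median rose. The median log2 fold change was -0.10 in the decile that holds *Tef* and *Ciart*, -0.17 in that of *Nfil3*, and -0.28 in that of *Dbp*. It was 0.26 in the decile of *Rora* and 0.20 in that of *Arntl2*. The deciles of *Bhlhe40* and *Bhlhe41* had medians of 0.04 and 0.06, and that of *Hlf* 0.12.

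The order of the levels changed at the top. Per kilobase of the gene length in the count table, *Nfil3* led in control MAFs at 20.5 CPM per kilobase, followed by *Bhlhe40* (13.5), *Tef* (5.98), *Arntl2* (5.30), *Dbp* (1.84), *Rora* (1.57), *Ciart* (0.943), *Bhlhe41* (0.411) and *Hlf* (0.00586). Neighbours in this order had separate ranges, except *Dbp* and *Rora*, whose values overlapped. In senescent MAFs *Bhlhe40* led at 29.1, followed by *Nfil3* (15.9), *Arntl2* (6.58), *Tef* (4.62), *Rora* (2.96), *Dbp* (1.25), *Bhlhe41* (0.980), *Ciart* (0.783) and *Hlf* (0.0494), with separate ranges throughout. The most abundant of the set was thus a D-box repressor in control MAFs and an E-box repressor in senescent MAFs. With these lengths *Dbp* lay above *Rora* within each control library and below it in each senescent library. In control replicate 2 the values were close, at 1.58 and 1.56. With the 2993 joined exon bases of GENCODE M21 in place of the table's 2945, *Dbp* was at 1.55 there, below *Rora*.

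The place of *Arntl2* in that order also depends on the length used. The table gives it 3032 bases, where the joined exons of GENCODE M21 hold 5691. With the longer length *Arntl2* was at 2.82 CPM per kilobase in control and 3.50 in senescent MAFs, below *Tef* in both groups, and its senescent values (3.35 to 3.82) overlapped those of *Rora* (2.65 to 3.51). *Bhlhe40* has 3272 bases in the table and 4705 in GENCODE M21. With the latter it was at 9.35 and 20.2 CPM per kilobase, still below *Nfil3* in control and above it in senescent MAFs.

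**Figure D4:**
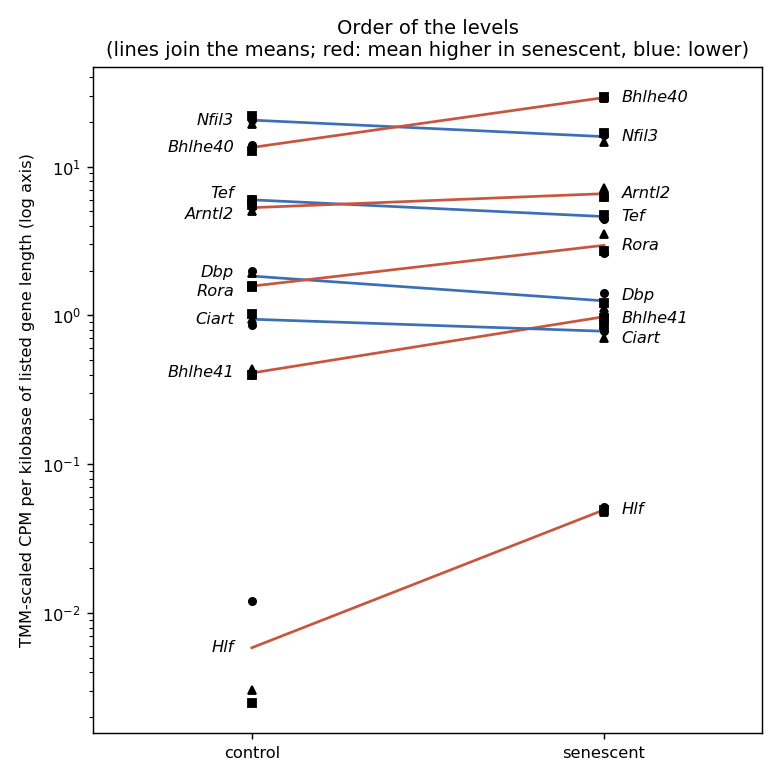
CPM per kilobase of the listed gene length in control and senescent MAFs on a log axis, with 1 black symbol per library and lines joining the group means, red where the senescent mean was higher and blue where it was lower. The lines of *Bhlhe40* and *Nfil3* cross at the top, and *Hlf* lies far below all others in both groups.

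The other genes of the loop moved in both directions. Of 19 core clock genes, 10 rose and 7 fell, and the median log2 fold change was 0.22. Among the activators, *Clock* went from 96.0 ± 6.07 to 124 ± 17.6 CPM (log2 fold change 0.37, adjusted p = 0.0123), and *Npas2*, its paralog, from 6.09 ± 0.345 to 1.83 ± 0.254 CPM (-1.72, adjusted p = 8.77e-06). The PER and CRY repressors split within each family. *Per1* fell (log2 fold change -1.11) and so did *Per3* (-0.49), while *Per2* rose (1.94, from 0.622 to 2.40 CPM). *Cry1* rose from 3.76 ± 0.120 to 10.2 ± 0.606 CPM (1.44, adjusted p = 3.25e-06), and *Cry2* fell from 43.9 ± 1.28 to 27.9 ± 1.65 CPM (-0.66, adjusted p = 6.44e-05). *Timeless*, which also acts at replication forks, fell the most (-3.47).

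**Figure D5:**
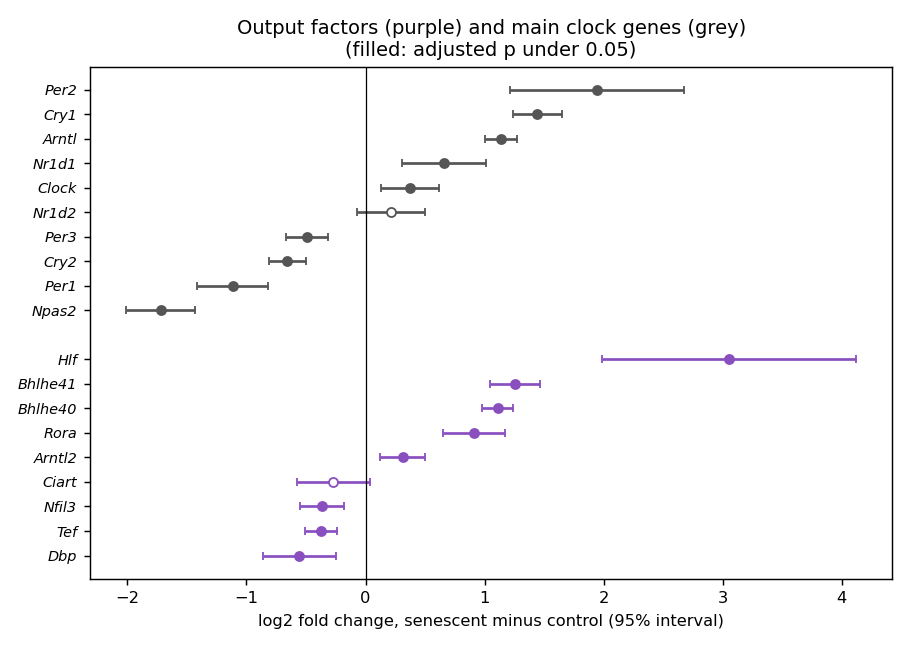
Log2 fold change (senescent minus control) with its 95% interval for the 9 output factors in purple and the 10 main clock genes in grey, filled where the adjusted p was under 0.05. Genes of both sets lie on each side of 0, with *Hlf*, *Bhlhe40*, *Bhlhe41*, *Arntl*, *Cry1* and *Per2* above 1.

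Genes known as targets of these factors also went both ways. Of 10 tested D-box genes (of 13 listed), 7 rose and 2 fell (median log2 fold change 0.71.) *Pdxk*, a pyridoxal kinase gene known as a target of the PAR bZIP factors, went from 16.3 ± 0.439 to 32.0 ± 2.13 CPM (log2 fold change 0.97, adjusted p = 1.26e-05). Of the D-box factors, the activators *Dbp* and *Tef* and the repressor *Nfil3* were lower and the activator *Hlf* was higher. A link between these changes and that of *Pdxk* was not tested. Of 11 other E-box outputs, 4 rose and 5 fell (median log2 fold change 0.02.) *Usp2*, a deubiquitinase gene, rose (1.39), and *Wee1*, a mitotic kinase gene, fell (-1.49). Of 8 genes known for ROR elements, 5 rose and 3 fell (median log2 fold change 0.52.) *E2f8*, a cell cycle regulator, fell (-4.52).

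Among relatives by protein family, the bHLH repressors *Hes1* (log2 fold change 1.18) and *Hey1* (1.72), which resemble the DEC factors in structure, rose. *Hey2* held 3, 2 and 5 counts in control and 44, 53 and 56 counts in senescent libraries, so it passed the filter on low counts only through the latter and could be called in that direction alone. *Hes6* was at 9.99 ± 1.02 and 8.28 ± 1.52 CPM (-0.27, adjusted p = 0.136). Only 4 of the 10 listed HES and HEY genes had enough counts to be tested. Of 15 bHLH-PAS relatives of *Arntl2*, 8 rose and 3 fell (median log2 fold change 0.37). *Ahrr*, the repressor of the aryl hydrocarbon receptor, went from 25.1 to 52.9 CPM (1.08) and *Npas4* from 0.486 to 3.58 CPM (2.89). Of the 8 that rose, *Npas1* (3, 0 and 0 control counts) and *Hif3a* (2, 2 and 3) passed the filter on low counts only through the senescent libraries. Both could be called in that direction alone. Of 6 tested genes named for the C/EBP family, bZIP relatives of the PAR factors, 2 were higher and 2 lower. *Ddit3* rose (1.36), and *Cebpa* (-0.91) and *Cebpd* (-0.69) fell, while the other gene that rose, *Cebpz* (0.70), shares the name and not the bZIP domain.

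Hypoxia is known to induce *Bhlhe40*, and both groups had met low oxygen and a glucocorticoid, so known targets of these signals were listed too. Of 11 hypoxia-inducible genes, 3 rose and 8 fell (median log2 fold change -0.43.) *Adm*, the adrenomedullin gene, rose from 28.6 to 58.0 CPM (1.02) and *Vegfa* from 76.3 to 143 CPM (0.91), while *Pdk1* (-1.34) and *Bnip3* (-1.03), genes of the metabolic arm of that response, fell. Of 12 glucocorticoid-induced genes, 7 rose and 5 fell (median log2 fold change 0.74.) *Pdk4* (2.52), *Dusp1* (1.96) and *Errfi1* (1.76) rose, and *Fkbp5*, a chaperone gene of the receptor, fell from 50.5 ± 2.35 to 16.2 ± 0.496 CPM (-1.64, adjusted p = 3.39e-07). No untreated level was measured in either group.

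The genes whose level followed each member most closely over the 6 libraries were named by the root mean square difference of centred log2 CPM among 13707 genes whose mean reached 1 CPM. For *Bhlhe41* they were *Gm14005* (0.019 on the log2 scale), *Cipc* (0.031), whose protein is known to bind CLOCK and repress, and *Zswim6* (0.033). For *Bhlhe40* they were *St3gal1* (0.028), *Pgam5* (0.031) and *Nr2f1* (0.032), and for *Rora* *Socs6* (0.021), *Ptp4a2* (0.025) and *Eif1a* (0.031). *Arntl2* was followed by *Smad2*, *Zfp141* and *Ints8*, *Ciart* by *Rere*, *Tcea3* and *Gm15800*, *Tef* by *Ptrh2*, *St3gal4* and *Alkbh3*, *Nfil3* by *Dnase2a*, *Ubac1* and *Gpc2*, and *Dbp* by *RP23-398K14.4*, *Phf21b* and *Prdm10*. For *Hlf* the nearest genes, *Ndst3* (0.192), *C920009B18Rik* (0.212) and *Car2* (0.216), were much further away. The 6 libraries fall into 2 groups, so a like size of change is most of what this likeness holds.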

How the data were processed

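The authors mapped paired reads of 100 bases to mm10 with STAR in MAPRSeq 3.1.4, counted them per gene with Subread, and deposited raw counts of all 6 libraries in 1 table. The library kit was stranded, but the strand setting of the counting is not given in the sources used here. All count columns were matched to samples by the labels, and 0 were left unmapped.

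Counts were filtered by filterByExpr, scaled by TMM and compared with the robust quasi-likelihood test of edgeR 4.0.16 under R 4.3.3, with no covariate beside the group. Tests are two-sided, with Benjamini-Hochberg adjustment over 17589 genes. This test measures the change against the spread between libraries. It was tried on simulated counts that held no deviation along GC content, so that trial does not cover the deviation seen in these libraries. The smallest p of an exact permutation of 3 against 3 samples is 0.1, so that test was not used. Total counts of 50288454 to 82229553 put 3 counts, the number that 0 counts allow, at 0.0355 to 0.0613 CPM. CPM per kilobase uses the gene length in the table. Exons, strand and GC content came from GENCODE M21 (GRCm38, the assembly of mm10), and promoters from RefSeq (GRCm38.p6).

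The members and lists were chosen with earlier results of these data known. The text names the members, their overlapping genes, the 10 main clock genes, up to 4 genes with the smallest p in each list, and the 3 genes nearest to each member. It also names *Npas1* and *Hif3a*, for their low counts, and all 6 senescence checks. Alternatives were RLE scaling, library size alone, other filters, DESeq2 1.42.0, limma 3.58.1 (voom with quality weights), a replicate block, each library left out and, chosen after seeing the data, a term for GC content. The authors' other assays were not analysed here. Some genes that this rule takes are not reported here.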

Additional observations from a re-analysis of the deposited data

How the results depend on the processing

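Of 125 values of the members under alternatives, 124 kept their direction and their side of the threshold. The exception was *Dbp* with the GC term, chosen after seeing the data (log2 fold change -0.22, adjusted p = 0.254), which left 7 members called in place of 8. Requiring 10 counts in each library also left 7, because *Hlf* was then not tested. RLE scaling, library size alone, no filter beyond 1 count, DESeq2 and limma each gave 8, as did each fit that left out 1 library. The changes of *Nfil3* (-0.37 to -0.20), *Tef* (-0.37 to -0.24) and *Arntl2* (0.31 to 0.16) shrank by more than 1.5 times with the GC term and kept their call. All 224 counts over the lists and over all genes stayed within 1.5 times. Scaling by library size alone moved mean levels by more than 1 SD in *Tef* (control, 45.8 CPM), *Bhlhe40* (senescent, 97.7 CPM), *Bhlhe41* (senescent, 6.31 CPM) and *Rora* (control, 20.0 CPM). With the replicate number as a replicate block, 8 members were called, 5 higher and 3 lower. The deviations of same-numbered libraries from their group means correlated at -0.15, 0.14 and -0.12 over 17589 genes. Control replicate 1 correlated most with senescent replicate 3 (0.26). Both of these libraries deviated along GC content, control replicate 1 by 0.07 in the lowest decile and -0.17 in the highest. The correlations therefore cannot show whether the numbers pair the samples. Depth limits *Hlf*, with 6 counts over the control libraries, and the 9 listed genes at few counts that were not tested among D-box and HES and HEY genes.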
